A study of Mus musculus with 10 samples.

Results

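Sox17 and 9 other genes of the Sox transcription factor family (Sox7, Sox18, Sox4, Sox9, Sox2, Sox21, Sox11, Sox13 and Sox5) were followed through 10 mouse colon tumors, 5 control and 5 Villin-WlscKO. The members were found by gene name, and all 10 were among the 16875 gene names of the table and among the 16757 with a mean of at least 0.5 FPKM that were tested. FPKM is the number of sequenced fragments scaled by transcript length and by the mapped reads of the library, so that levels of different genes can be compared within a tumor. Sox17 was selected on its measured FPKM, which were far lower in Villin-WlscKO than in control tumors, so its difference between the groups is given as a description with no test. How the other 9 were picked is not stated beyond their names, and results of these data were known then.

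All tumors were induced in C57Bl6 mice with azoxymethane (AOM), a carcinogen, followed by cycles of dextran sulfate sodium (DSS), which inflames the colon, and were macrodissected and frozen. Control tumors carried Wls flox/flox alone, whereas Villin-WlscKO tumors carried Wls flox/flox with Villin-Cre ERT2, a tamoxifen-inducible Cre recombinase expressed from the Villin promoter in intestinal epithelium. Wls encodes the transporter that Wnt ligands need for secretion, and it can be deleted by this Cre in epithelial cells only, so other cells of the tumor piece kept the gene. Tamoxifen was injected after the tumors had formed, about a month before collection, and the study describes its control tumors as not treated with tamoxifen unless stated otherwise. The animals were young adults at the start and preferentially female by the description of the study. The number of mice behind the tumors is not given in the sources used here, so n counts tumors, and the spread between them may in part be the spread within a mouse.

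Wls ranged from 61.3 to 79.9 FPKM in the controls and between 2.03 and 11.7 FPKM in Villin-WlscKO tumors. In Villin-WlscKO tumors Xist, which female cells transcribe from the silenced X chromosome, ranged from 439 to 701 FPKM, whereas no control tumor exceeded 0.420 FPKM, and the Y-chromosome gene Eif2s3y showed the opposite pattern, which goes against a mostly female set for the controls. Genotype, sex and tamoxifen cannot be told apart. Villin-WlscKO tumors 2 and 3 stood apart from the other 8 by Krt5, a keratin of stratified squamous epithelium, with 469.5 and 669 FPKM against at most 0.315 FPKM. The same pair had the highest Wls of the Villin-WlscKO group, at 11.6 and 11.7 FPKM, against values between 2.03 and 3.61 FPKM in the others. Leaving the pair out therefore removes both traits at once. Results that rest on this pair are also given without it. FPKM summed to between 1207683 and 1533885 per tumor, and no read counts can be had from these values, so the depth is unknown. A difference is the Villin-WlscKO mean less the control mean of log2(FPKM + 1), with the standard error from limma, a linear model fitted to all genes, and its adjusted p has a threshold of 0.05.

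Sox proteins bind DNA through a domain called the HMG box and are sorted into subgroups by sequence. SoxF (Sox7, Sox17, Sox18) acts in the endothelium of blood and lymph vessels, and Sox17 also in the definitive endoderm from which the gut forms, where it can bind beta-catenin and restrain the response to Wnt. SoxB (Sox2, Sox21) is known from neural cells and the foregut, SoxC (Sox4, Sox11, Sox12) from progenitors, SoxD (Sox5, Sox6, Sox13) from cartilage and other lineages, and SoxE (here Sox9) from colon crypts, where Sox9 is a Wnt target.

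Promoter sequence from RefSeq (GRCm38.p6) could be matched to 9 of the 13 Sox genes of the table; Sox17, Sox18, Sox7 and Sox9 had no entry. The 250 bases before the start are shown for Sox21 and Sox12, the genes of these 9 that passed the test below, and for Sox6, whose difference was about as large but did not pass. They are written 5′ to 3′ on the strand of the gene, and capitals mark matches to CTTTGAT or CTTTGTT (bound by TCF/LEF factors) or to AACAAT or ACAATG (bound by Sox factors) on either strand.
Sox21, chr14:118237031-118237280, minus strand: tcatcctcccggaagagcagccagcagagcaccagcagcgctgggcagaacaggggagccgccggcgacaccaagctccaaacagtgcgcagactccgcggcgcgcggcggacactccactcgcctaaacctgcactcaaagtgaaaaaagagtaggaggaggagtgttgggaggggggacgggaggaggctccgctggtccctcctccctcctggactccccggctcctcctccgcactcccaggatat
Sox12, chr2:152398047-152398296, minus strand: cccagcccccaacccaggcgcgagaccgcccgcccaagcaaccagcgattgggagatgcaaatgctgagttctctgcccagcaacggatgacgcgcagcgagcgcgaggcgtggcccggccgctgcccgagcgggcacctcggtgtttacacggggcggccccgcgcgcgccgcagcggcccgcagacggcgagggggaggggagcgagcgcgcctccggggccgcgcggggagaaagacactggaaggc
Sox6, chr7:116038745-116038994, minus strand: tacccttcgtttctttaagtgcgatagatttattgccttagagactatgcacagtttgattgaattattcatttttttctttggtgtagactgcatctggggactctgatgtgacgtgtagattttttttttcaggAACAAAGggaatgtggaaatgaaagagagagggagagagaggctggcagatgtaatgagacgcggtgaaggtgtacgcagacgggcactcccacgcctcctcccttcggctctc
The windows of Sox21 and Sox12 hold none of the 4 words, and that of Sox6 holds 1, a CTTTGTT on the opposite strand. Of 27025 promoters of this length, 3.23% hold CTTTGAT, 4.99% CTTTGTT, and 9.65% AACAAT, and 2969 hold ACAATG; the last 2 words can overlap. Sox6 has 6 listed starts in all, and only the one farthest upstream is shown. Of the other 5, taken in order downstream, the windows hold 0, 4, 1, 3 and 0 matches to the 4 words.

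In control tumors Sox17 was among the most abundant Sox genes of the table. Sox4 led by mean level with 82.4 ± 9.70 FPKM (SD, n = 5), before Sox17 (65.7 ± 35.9 FPKM) and Sox21 (56.4 ± 10.3 FPKM), and their ranges overlapped. Sox4 exceeded Sox17 in 4 of 5 control tumors and Sox17 exceeded Sox21 in 3 of 5. Sox9 (35.4 ± 6.28 FPKM) and Sox18 (33.9 ± 12.2 FPKM) followed, did not differ beyond their spread, and Sox18 exceeded Sox13 (22.0 ± 5.85 FPKM) in all 5 tumors, though their ranges overlapped. Below Sox13 came a gap that no control tumor crossed. Sox2, Sox11, Sox7 and Sox5 had means between 0.667 and 1.31 FPKM, and each exceeded the next of the order in 3 of 5 tumors only. In Villin-WlscKO tumors Sox17 stood in position 6 with 5.62 ± 1.83 FPKM (SD, n = 5), below Sox4, Sox21, Sox9, Sox13 and Sox18, and it was lower than Sox18 in all 5 tumors. Sox4 kept the first position there (69.5 ± 20.1 FPKM) with no overlap with Sox21 (34.4 ± 6.51 FPKM). Sox21 exceeded Sox9 (32.9 ± 7.66 FPKM) in 3 of 5 tumors.

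**Figure D1:**
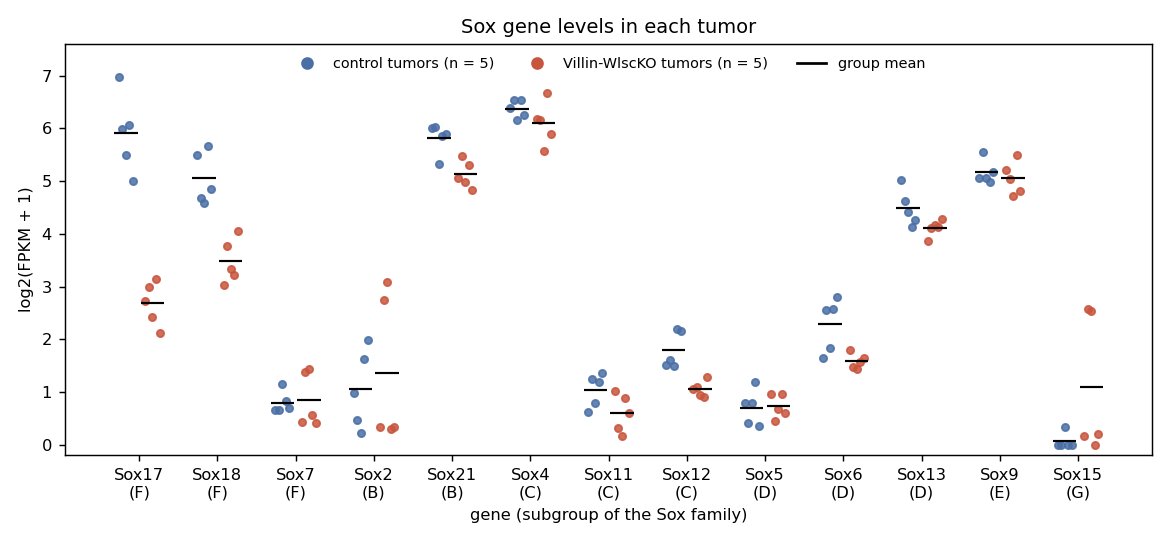
Level of each of the 13 Sox genes of the table in each tumor, as log2(FPKM + 1), with control tumors in blue, Villin-WlscKO tumors in red and group means as lines; letters give the subgroup. The groups are apart for Sox17, Sox18 and Sox12, and 2 red points lie far above the other 3 for Sox2 and Sox15.

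Sox17 (ENSMUSG00000025902.13), on the minus strand at chr1:4490931-4497354 (GENCODE M21 annotation, GRCm38), was at 125, 62.7, 44.1, 66.0 and 31.2 FPKM in control tumors 1 to 5. In Villin-WlscKO tumors 1 to 5 it was at 5.63, 6.97, 4.37, 7.80 and 3.35 FPKM. The groups did not overlap, and the control tumors spread more widely, with control tumor 1 highest and control tumor 5 lowest. The control mean was 11.7 times the Villin-WlscKO mean, and the difference was -3.23 (standard error 0.33). This made Sox17 number 10 from the lowest among the 16757 genes by difference. The values chose the gene, so nothing is read from them. Leaving out each tumor in turn gave differences between -3.45 and -2.96. The annotation places 1 noncoding transcript, Gm37587, across the gene on the other strand, and no other gene name shared the values of Sox17.

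Sox18, an endothelial factor of blood and lymph vessels, fell. On chromosome 2 from 181669836 to 181671640 (ENSMUSG00000046470.5), it was at 43.9, 24.6, 23.1, 49.9 and 27.8 FPKM in control tumors 1 to 5, and at 7.14, 12.6, 9.05, 8.36 and 15.7 FPKM in Villin-WlscKO tumors 1 to 5. Every Villin-WlscKO tumor lay below every control tumor. The difference was -1.57 (standard error 0.26, limma adjusted p = 0.00398), a control mean 3.21 times the Villin-WlscKO mean, and it passed in each of the 21 alternatives that give a p. Sox7, the remaining SoxF gene (chromosome 14 from 63943673 to 63950732), was near the limit of the table in all tumors. It was between 0.581 and 1.21 FPKM in control tumors, with a median of 0.621. In Villin-WlscKO tumors it was at 0.350, 1.60, 1.70, 0.476 and 0.335 FPKM, so that tumors 2 and 3 were above every control tumor and the other 3 below every control tumor. The difference of 0.045 (standard error 0.23, limma adjusted p = 0.933) turned to -0.33 without that pair (standard error 0.14, limma adjusted p = 0.215).

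SoxF genes are known from endothelium, but which cells of the tumor pieces held their RNA was not tested. For comparison, 20 endothelial genes were read beside the SoxF genes. All 20 were tested, of which 10 lay below 0 and 10 above 0 by difference, with a median of -0.0070, against 0.0073 over all genes. By limma 0 of 20 passed, and 0 had an unadjusted p under 0.05. Their summed level ran from 179 to 329 FPKM in the controls and between 172 and 330 FPKM in Villin-WlscKO tumors. The most abundant was Ecscr (120 ± 26.4 against 110 ± 30.7 FPKM; SD, n = 5 in each group), followed by Egfl7, whose values 3 other names share (35.3 ± 5.56 against 29.6 ± 7.84 FPKM), and Plvap, a protein of fenestrated vessels (18.8 ± 8.64 against 27.3 ± 13.8 FPKM). The defining markers Pecam1 and Cdh5 were present in both groups, at 8.35 ± 4.205 and 5.68 ± 2.77 FPKM in control and at 10.9 ± 5.54 and 5.81 ± 3.02 FPKM in Villin-WlscKO tumors. In whole tumor pieces, fewer cells of a type and less RNA per cell cannot be told apart for any of these genes. Without Villin-WlscKO tumors 2 and 3 the endothelial median was -0.27 and again 0 of 20 passed.

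Read against the mean log2(FPKM + 1) of the endothelial genes in the same tumor, Sox18 was higher by 2.54 ± 0.56 in the controls and by 0.95 ± 0.60 in the Villin-WlscKO group (SD, n = 5). The difference of -1.59 had an exact permutation p of 0.0159 (two-sided, 252 arrangements, smallest possible p 0.00794), or 0.0238 adjusted over the 3 ratios tested, and 4 of 5 Villin-WlscKO tumors were under the whole control range. The exception was tumor 5, at 2.01, which lay above control tumor 3, at 1.61. Sox7 relative to the endothelial genes was at -1.71 ± 0.24 in control and -1.68 ± 0.19 in Villin-WlscKO tumors, and the difference of 0.033 did not pass (n = 5; exact permutation test, p = 0.825, adjusted p = 0.825). Sox18 against Sox7 differed between the groups by -1.62 on the log2(FPKM + 1) scale (exact permutation test, p = 0.0159, adjusted p = 0.0238). Sox7 averaged only 0.755 FPKM in control tumors, where a pseudocount of 1 shrinks differences. An equal fold fall of both genes would therefore also give a negative value. This test cannot decide whether their fold changes differ. Both ratios of Sox18 were at an adjusted p of 0.0804 by the same exact test when Villin-WlscKO tumors 2 and 3 were left out, with differences of -1.35 against the endothelial genes and -1.29 against Sox7. Sox17 stood 3.39 ± 0.71 above the endothelial mean in the controls and 0.16 ± 0.44 above it in the Villin-WlscKO group (SD, n = 5), given without a test. Of 9 arterial endothelial genes tested, a set with which Sox17 is associated in vessels, 8 did not pass and Notch4, a Notch receptor of endothelium, rose. Over all genes tested, 6.12% rose and 4.75% fell by limma. Notch4 was at 1.52 ± 0.20 FPKM in the controls and at 3.57 ± 0.41 FPKM in the Villin-WlscKO group (SD, n = 5; difference 0.86, standard error 0.10, limma adjusted p = 0.000551). The arterial median was 0.018, and at an unadjusted p under 0.05, 1 gene was lower and 1 higher. The lower one was Hey1, a Notch target, at 4.05 ± 1.26 and 2.28 ± 1.05 FPKM (SD, n = 5; difference -0.63, standard error 0.24, limma adjusted p = 0.132), which passed without control tumor 5. The most abundant of the list were Efnb2 (whose values 2 other names share), Unc5b and the Notch ligand Dll4, at 67.7, 17.5 and 7.59 FPKM on average in control tumors and 62.3, 16.4 and 7.79 FPKM in Villin-WlscKO tumors.

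**Figure D2:**
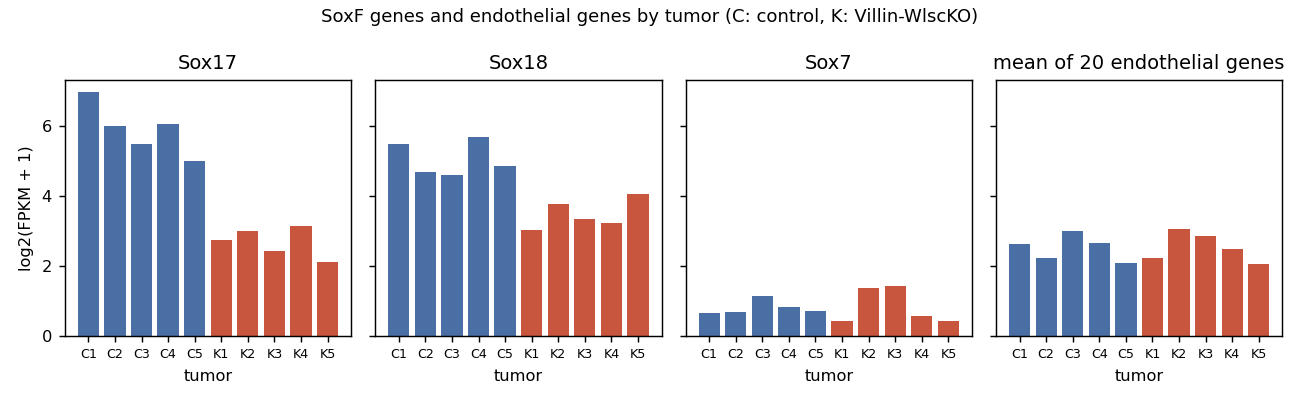
Level of Sox17, Sox18 and Sox7 in each tumor, and the mean of the 20 endothelial genes, as log2(FPKM + 1) on a common axis that starts at 0 (C, control, blue; K, Villin-WlscKO, red). The Sox17 and Sox18 bars are lower in all 5 Villin-WlscKO tumors, while the endothelial mean is 2.51 ± 0.36 in control and 2.52 ± 0.42 in Villin-WlscKO tumors.

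Over the family, 13 of 20 mouse Sox genes looked for were in the table, the 10 members and Sox6, Sox12 and Sox15, and all 13 were tested. Of the 9 members other than Sox17, 2 fell (Sox18 and Sox21) and 0 rose by limma, where 4.75% of all genes tested fell and 6.12% rose, 10.9% in all. At an unadjusted p under 0.05, 0 were higher. The members were chosen with results known, so nothing is read from this count. Their median difference was -0.28, against 0.0073 over all genes. Of the 3 further Sox genes, Sox12 fell. Leaving Sox17 aside, the groups did not overlap, with Villin-WlscKO lower, for 2 of the 12 Sox genes, Sox18 and Sox12, which holds for 4.76% of all genes tested, while 5.33% were apart in the other direction, 10.1% in all. Across 21 alternative settings the number of these 12 genes lower past the threshold, 3 as reported, lay between 1 and 4, and the number higher was 0. It was 1 without Villin-WlscKO tumor 3, which left Sox18, and 2 without tumors 2 and 3 together, which left Sox18 and Sox21.

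**Figure D3:**
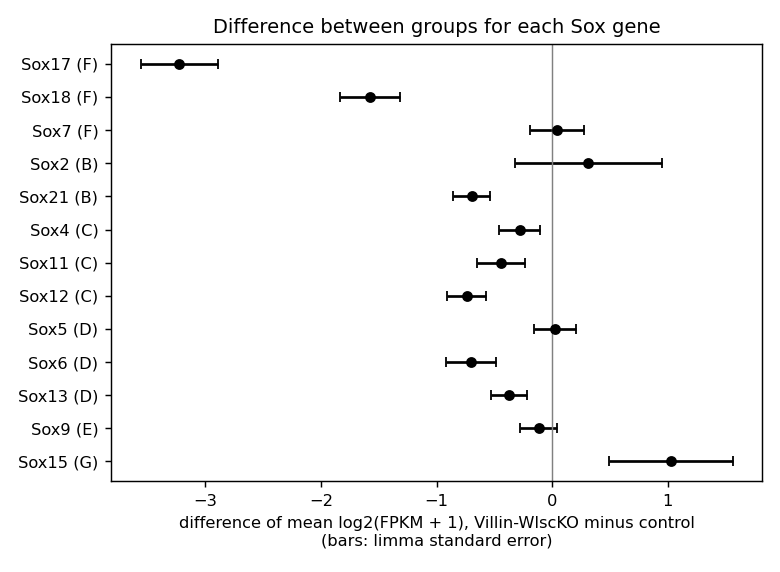
Villin-WlscKO mean less control mean of log2(FPKM + 1) for the 13 Sox genes of the table, with the limma standard error as a bar and the subgroup in brackets (5 tumors in each group). Values run from -3.23 for Sox17 to 1.03 for Sox15. The widest bars are those of Sox2 (0.64) and Sox15 (0.54), whose highest values are in Villin-WlscKO tumors 2 and 3.

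Among SoxB genes, Sox21, which in neural progenitors counteracts Sox2, fell, and Sox2, a factor of foregut and squamous epithelium, did not pass the test. Sox21 (chromosome 14 from 118233232 to 118237030, ENSMUSG00000061517.8) was at 63.5, 64.5, 38.9, 56.9 and 58.4 FPKM in control tumors 1 to 5 and at 32.3, 43.6, 30.4, 38.4 and 27.5 FPKM in Villin-WlscKO tumors 1 to 5. The groups overlapped only through control tumor 3, which lay below Villin-WlscKO tumor 2. The difference was -0.69 (standard error 0.16, limma adjusted p = 0.0200). It lost its call after scaling all tumors to an equal FPKM sum (-0.59, limma adjusted p = 0.0689), without control tumor 2 (adjusted p = 0.0536) and without Villin-WlscKO tumor 3 (adjusted p = 0.0521). Gm4675, a noncoding gene across Sox21 on the other strand, was at 2.30 ± 0.78 and 2.33 ± 0.68 FPKM (SD, n = 5 in each group).

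Sox2 (chromosome 3 from 34650405 to 34652461) was at 0.964, 0.380, 0.161, 2.096 and 2.96 FPKM in control tumors 1 to 5 and at 0.271, 5.75, 7.47, 0.233 and 0.264 FPKM in Villin-WlscKO tumors 1 to 5. The highest values of all tumors were those of Villin-WlscKO tumors 2 and 3, and the other 3 Villin-WlscKO tumors were below 4 of the 5 control tumors. The difference was 0.31 (standard error 0.64, limma adjusted p = 0.814) and turned to -0.73 without that pair (standard error 0.39, limma adjusted p = 0.313). Sox15, the only SoxG gene, followed the same tumors: its values were 4.97 FPKM in Villin-WlscKO tumor 2 and 4.82 FPKM in tumor 3, at most 0.145 FPKM in the other 3, and listed at 0 in 4 control tumors and at 0.262 FPKM in control tumor 3. Its difference was 1.03 (standard error 0.54, limma adjusted p = 0.261) and 0.052 without the pair. Sox15 overlaps Mpdu1 on the other strand, which was at 66.5 ± 4.36 and 69.0 ± 6.12 FPKM (SD, n = 5 in each group).

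Most squamous markers of the list were highest in Villin-WlscKO tumors 2 and 3, as were Sox2 and Sox15. Among the controls such a match was not seen for Krt14, a keratin of the list. It was highest in control tumor 1 (113 FPKM) and lowest in control tumor 5 (15.7 FPKM), which had the highest control Sox2 (2.96 FPKM). Col17a1, another gene of the list, went the other way. Like Sox2, it was highest in control tumor 5 (1.35 FPKM), followed by control tumor 4 (1.14 FPKM). How Sox2 goes with the list among the controls was not tested. Trp63, the master factor of stratified epithelium, reached 16.3 FPKM in Villin-WlscKO tumor 2 and 16.96 FPKM in tumor 3, and the other 8 tumors had at most 0.0649 FPKM. Of 11 squamous genes tested, 10 had a difference above 0 and 1 below, with a median of 0.81. Past the threshold 1 rose, Sfn (86.6 ± 25.2 to 158 ± 41.8 FPKM; SD, n = 5 in each group), as did 6.12% of all genes tested. Its difference was 0.87 (standard error 0.22, limma adjusted p = 0.0313). Sfn lost its call without Villin-WlscKO tumors 2 and 3 (0.61, limma adjusted p = 0.146) and without control tumor 1, 4 or 5 or Villin-WlscKO tumor 2 or 3 (adjusted p between 0.0630 and 0.0729). Perp was the most abundant (131 ± 14.3 against 197 ± 57.0 FPKM), followed by Sfn and Krt5. The summed level of the list ran from 248 to 427 FPKM in the controls and reached 1889 FPKM in Villin-WlscKO tumors, and its median was -0.10 without tumors 2 and 3. Within the Villin-WlscKO group, tumors 2 and 3 also had the highest mean of the endothelial genes. It was 3.04 and 2.84 as log2(FPKM + 1), against values between 2.045 and 2.47 in the other Villin-WlscKO tumors. The part of squamous or endothelial tissue in the levels of Sox2, Sox15 and Sox7 was not tested. Sox18 was below every control tumor in Villin-WlscKO tumors 2 and 3, with high Krt5 and Trp63, and in the other Villin-WlscKO tumors. The same held for Sox17, which was picked for its low values there.

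**Figure D4:**
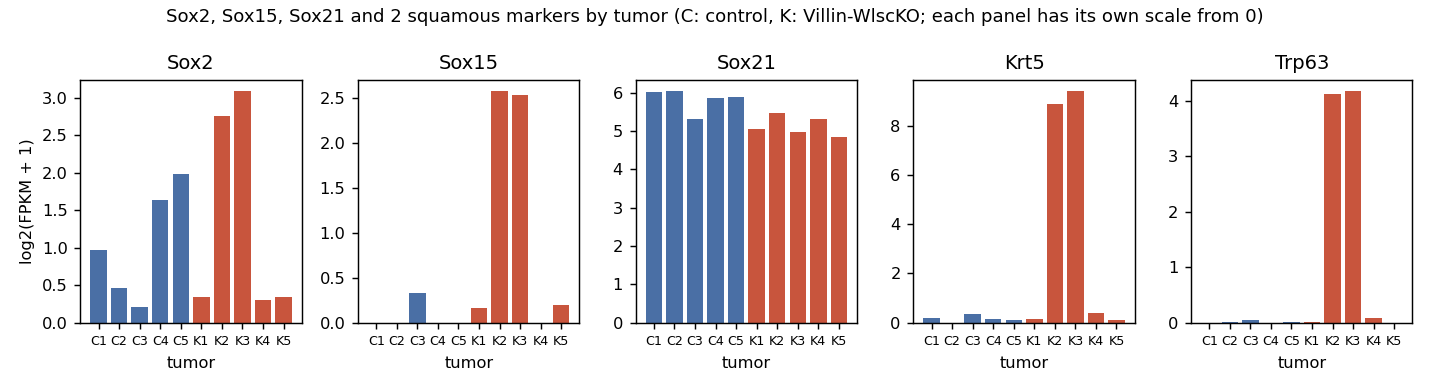
Level of Sox2, Sox15, Sox21, Krt5 and Trp63 in each tumor as log2(FPKM + 1), each panel with its own scale from 0 (C, control, blue; K, Villin-WlscKO, red). Tumors K2 and K3 carry the highest Sox2, Sox15, Krt5 and Trp63, whereas their Sox21, at 43.6 and 30.4 FPKM, lies within the range of the other Villin-WlscKO tumors or just above it.

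Among SoxC genes, Sox12 fell, and Sox4 and Sox11 did not pass. Sox12 (chromosome 2 from 152393611 to 152398063) was at 1.87, 2.05, 1.80, 3.56 and 3.48 FPKM in control tumors 1 to 5 and at 1.07, 1.14, 0.921, 0.878 and 1.42 FPKM in Villin-WlscKO tumors 1 to 5, with no overlap. The difference was -0.74 (standard error 0.17, limma adjusted p = 0.0198), and the adjusted p was 0.0508 without Villin-WlscKO tumor 3 and 0.0871 without tumors 2 and 3. Sox4, the most abundant Sox gene of both groups and a factor of many epithelial progenitors, lay between 70.8 and 92.3 FPKM in control tumors (median 82.2) and between 46.7 and 101 FPKM in Villin-WlscKO tumors (median 70.5). Its difference was -0.28 (standard error 0.18, limma adjusted p = 0.359). Sox11 lay between 0.531 and 1.58 FPKM in control and between 0.119 and 1.02 FPKM in Villin-WlscKO tumors, with a difference of -0.44 (standard error 0.21, limma adjusted p = 0.215), and its lowest values, 0.254 and 0.119 FPKM, were in Villin-WlscKO tumors 2 and 3.

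Of the 3 SoxD genes 0 passed in limma, while Sox6 and Sox13 had an unadjusted p under 0.05. Sox13, the most abundant of them, was at 31.4, 23.5, 20.2, 16.5 and 18.3 FPKM in control tumors 1 to 5 and between 13.6 and 18.5 FPKM in Villin-WlscKO tumors (median 16.4), a difference of -0.38 (standard error 0.16, adjusted p = 0.159). Sox6 was at 2.15, 4.91, 2.58, 4.93 and 5.94 FPKM in control tumors 1 to 5 and between 1.70 and 2.47 FPKM in Villin-WlscKO tumors. Control tumor 1 alone fell into the Villin-WlscKO range. Its difference of -0.70 (standard error 0.22, limma adjusted p = 0.0688) passed in 3 of 20 alternatives, the strongest being without control tumor 1 (-0.86, adjusted p = 0.0225). Sox5 was at 0.667 ± 0.400 and 0.671 ± 0.259 FPKM (SD, n = 5 in each group), a difference of 0.022 (standard error 0.18, limma adjusted p = 0.961).

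Sox9, the crypt progenitor factor, did not pass either. It lay between 30.7 and 46.2 FPKM in control tumors (median 32.4) and between 25.3 and 44.4 FPKM in Villin-WlscKO tumors (median 31.9), a difference of -0.11 (standard error 0.16, limma adjusted p = 0.716). The 13 intestinal stem cell genes were a list written with the crypt in mind that includes Wnt targets. Of these, 2 fell (Axin2 and Znrf3, feedback inhibitors of Wnt signaling) and 3 rose (Lrig1, Rgmb and Slc12a2), with a median of 0.24. By limma 4.75% of all genes tested fell and 6.12% rose. Rgmb passed narrowly (difference 0.60, standard error 0.17, limma adjusted p = 0.0467) and in 8 of 21 alternatives, with adjusted p between 0.0326 and 0.103. It kept its call in only 1 of the 10 fits that leave out a tumor, the one without control tumor 5, and lost it without Villin-WlscKO tumors 2 and 3 (0.65, adjusted p = 0.103). Axin2, the most abundant, went from 158 ± 14.9 to 96.5 ± 10.9 FPKM, Slc12a2, an ion transporter, from 54.2 ± 8.01 to 93.2 ± 13.1 FPKM, and Smoc2 was at 73.8 ± 18.2 and 76.6 ± 13.4 FPKM (SD, n = 5 in each group).

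Ifngr1, the binding chain of the interferon-gamma receptor, and Lgr5, the R-spondin receptor that marks crypt stem cells, were read beside Sox17 as context. Ifngr1 was at 68.5, 62.9, 80.6, 55.4 and 66.1 FPKM in control tumors 1 to 5 and at 88.7, 78.6, 128, 98.5 and 114 FPKM in Villin-WlscKO tumors 1 to 5. Only control tumor 3 exceeded a Villin-WlscKO tumor, number 2. It rose by 0.59 (standard error 0.14, limma adjusted p = 0.0228), and the adjusted p was between 0.0506 and 0.0567 without control tumor 2, 4 or 5 or Villin-WlscKO tumor 5. Lgr5 was at 6.28, 22.6, 14.0, 22.6 and 18.7 FPKM in control tumors and at 32.1, 30.3, 15.3, 39.4 and 19.5 FPKM in Villin-WlscKO tumors, a difference of 0.71 (standard error 0.35, limma adjusted p = 0.239) with overlap. Of 7 genes of the interferon-gamma receptor pathway, 4 rose by limma, among them Ifngr1, Irf1 and Socs1, and 0 fell. At an unadjusted p under 0.05, 1 was lower, and the median was 0.59. Over all genes tested 6.12% rose and 4.75% fell. The list was chosen with results known, so nothing is read from its count. Irf1, a transcription factor, went from 48.8 ± 4.26 to 139 ± 17.5 FPKM, and Ifngr2, the other receptor chain, was at 131 ± 7.96 and 109 ± 17.8 FPKM (SD, n = 5 in each group). Without Villin-WlscKO tumors 2 and 3, 3 of the 7 rose.

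Because the groups form separate clusters in Sox17, relations between genes were computed only after each group's mean had been removed, over 10 tumors, with an exact permutation of tumors within groups. Of 6 relations 0 passed at an unadjusted p under 0.05 and the lowest adjusted p was 0.786. Sox17 against Sox18 had a Pearson r of 0.26 (exact permutation p = 0.53) and a Spearman rho of 0.21 (p = 0.603), and against Sox7 r was -0.051 (p = 0.865) and rho -0.030 (p = 0.941). Against the endothelial mean r was 0.34 (exact permutation p = 0.356) and rho 0.41 (p = 0.262), and Sox7 against Sox18 gave r = -0.039 (p = 0.91) and rho = 0.0061 (p = 1). Sox17 against Ifngr1 had r = -0.38 (exact permutation p = 0.266) and rho = -0.45 (p = 0.205), and Sox17 against Lgr5 r = -0.18 (p = 0.659) and rho = 0.18 (p = 0.652). Without control tumors 1 and 5, the pair farthest from the median of Sox17, r was -0.074 for Sox18, -0.034 for Sox7, 0.13 for the endothelial mean, -0.76 for Ifngr1 and 0.80 for Lgr5. The values for Sox18, Ifngr1, Lgr5 and the endothelial mean depended on these tumors, whereas that for Sox7 was near 0 either way. The values without the pair carry no test, and the group means were not taken again after it was left out. No relation is read from them. For Sox17 with Sox18 the sign of r was positive in the controls and negative in the Villin-WlscKO group. For Sox17 with Lgr5, Sox17 with Sox7 and Sox7 with Sox18 it was negative in the controls and positive in the Villin-WlscKO group. These signs rest on 5 tumors in each group and were not tested. Some belong to small values, as for Sox17 with Sox7 and Sox7 with Sox18 in the Villin-WlscKO group. No direction is read from the signs, and a joint r near 0 does not show that a relation is absent. No r is given for a single group, which holds 5 tumors.

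**Figure D5:**
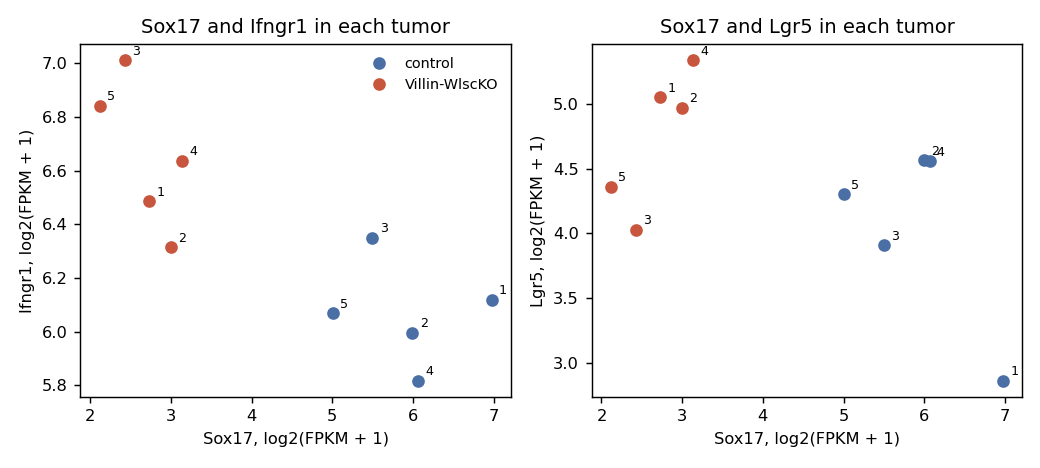
Sox17 on the horizontal axis against Ifngr1 (left) and Lgr5 (right) in each tumor, both as log2(FPKM + 1), with control tumors in blue, Villin-WlscKO tumors in red and the tumor number beside each point. The groups are apart along the Sox17 axis, and control tumor 1 has the highest Sox17 (125 FPKM) and the lowest Lgr5 (6.28 FPKM).

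Neighbors of Sox17 on chromosome 1 were read next. Up to 4 gene names of the table were taken on either side, which gave 2 toward the start of the chromosome and 4 on the other side. All 6 were tested, and 0 passed in limma (at an unadjusted p under 0.05, 1 was lower and 2 were higher). The nearest, the pseudogene Gm7357 at a distance of 25551 bases, was at 1.48 ± 0.49 and 1.11 ± 0.29 FPKM (SD, n = 5 in each group). Mrpl15, a mitochondrial ribosomal protein gene 275852 bases away, was at 87.8 ± 6.93 and 83.6 ± 1.09 FPKM, a difference of -0.066 (standard error 0.062, limma adjusted p = 0.555).

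By the root mean square difference between profiles of log2(FPKM + 1) over the 10 tumors, each centred on its own mean, the genes most like Sox17 were Uty (0.466), Irx4 (0.481), Kdm5d (0.501), Ddx3y (0.639) and Gabra4 (0.694). Uty, Kdm5d and Ddx3y lie on the Y chromosome. The measure takes in the difference between the groups, so it favors any gene that separates them, and no test is given. It also takes in the order of tumors within a group, so it selects for a shared order. Irx4, a homeobox transcription factor, was at 33.4, 12.2, 17.6, 11.8 and 7.77 FPKM in control tumors 1 to 5 and between 1.11 and 2.31 FPKM in Villin-WlscKO tumors. As for Sox17, control tumor 1 was highest and control tumor 5 lowest among the controls. Gabra4, a receptor subunit for GABA, ranged from 3.37 to 9.77 FPKM in the controls and reached 0.475 FPKM in the Villin-WlscKO group, with its highest value in control tumor 4.

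The other cell types of the tumor pieces were read from lists of their genes. Of 12 pan-epithelial genes, 10 were higher and 2 lower with a median of 0.18, and 0 passed in limma (at an unadjusted p under 0.05, 1 were lower and 4 higher). Their summed level ran from 7031 to 9961 FPKM in the controls and between 8559 and 10587 FPKM in Villin-WlscKO tumors, led by Krt19 (whose values 2 other keratin names share), Krt8 and Epcam, the last at 986 ± 46.3 and 1120 ± 181 FPKM (SD, n = 5 in each group). Of 11 gut endoderm transcription factors, 1 fell and 0 rose by limma, where 4.75% of all genes tested fell and 6.12% rose. Foxa2, which like Sox17 acts in early endoderm, fell from 26.8 ± 4.58 to 15.8 ± 3.50 FPKM (difference -0.73, standard error 0.15, limma adjusted p = 0.0118) with no overlap. At an unadjusted p under 0.05, 2 were higher. The list had a median of 0.14, and its most abundant genes Hnf4a, Klf5 and Cdx1 did not pass. Without Villin-WlscKO tumors 2 and 3 the difference of Foxa2 was -0.62 (limma adjusted p = 0.0764), and the remaining 3 Villin-WlscKO tumors were still below every control tumor. Of 4 enteric glial and neuronal genes, 7 tuft cell genes and 9 fibroblast genes tested, 0 passed in limma (at an unadjusted p under 0.05, 0, 2 and 0), with medians of 0.20, 0.15 and 0.11. Without Villin-WlscKO tumors 2 and 3 the tuft cell and fibroblast medians were -0.082 and -0.41. Among the most abundant genes were Erbb3, Uchl1 and Ret, then Avil and Alox5ap, then Col3a1, Dcn and Col1a2. Sox10, the defining Sox gene of enteric glia, was not among the names of the table.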

How the data were processed

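RNA from 10 macrodissected colon tumors was sequenced from TruSeq stranded mRNA libraries. The authors checked reads with FastQC, mapped them with TopHat2 2.1.1 to GRCm38.p5 and assembled and quantified transcripts with Cufflinks 2.2.1, and ran Cuffdiff without merging transcripts for comparisons by sample; the deposited table holds 1 FPKM per gene name and tumor. The annotation release and strand setting are not given in the sources used here. All 10 columns were matched to tumors by label, and 2419 names shared all values with another name. FPKM were analysed as log2(FPKM + 1), with a pseudocount of 1, in limma 3.58.1 (R 4.3.3; eBayes with trend, no covariate, two-sided, Benjamini-Hochberg over 16757 names with a mean of at least 0.5 FPKM). The filter uses the mean over all tumors, and the pseudocount shrinks differences of low genes such as Sox7 or Sox15. Exact permutation tests and figures were made with Python 3.11.15, scipy 1.17.1 and matplotlib 3.10.9. The fit was tested on simulated data. Precision rests on the spread between 5 tumors, since no counts are at hand. Same-numbered tumors were checked for pairing (correlations of their deviations between -0.087 and 0.16), and the reported fit has no block.

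Members, lists and motifs were chosen with earlier results of these data known. Named genes were the members, other Sox genes, Wls, Ifngr1, Lgr5 and Krt5, the 3 most abundant of each list, the 5 profiles nearest to Sox17 and up to 4 neighbors on either side. The lists covered endothelial, arterial, pan-epithelial, stem cell, endoderm, interferon-gamma, squamous, glial and neuronal, tuft cell and fibroblast genes. Other genes named from them passed the test, are defining markers, or show a limit of a result, such as Krt14, Col17a1 and Hey1. They were picked after their values were seen, as were Xist and Eif2s3y. Alternatives covered pseudocount, scaling, filter, variance model, weights, block and left-out tumors. A few listed genes are not reported here by name.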

Additional observations from a re-analysis of the deposited data

Results flagged for a closer look

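Among 30 sets of 5 tumors (13 Sox genes, Ifngr1 and Lgr5 in each group), a single tumor stood far from the other 4 on the log2(FPKM + 1) scale in 2. Chance gives about 1 in 20 sets, so 2 of 30 is near that rate. The rate does not hold for values tied at 0, as for Sox15, where any single value above 0 is flagged. Sox21 was at 38.9 FPKM in control tumor 3, below the other control tumors, which were between 56.9 and 64.5 FPKM, and Sox15 was at 0.262 FPKM in control tumor 3 and listed at 0 in the other 4.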

How the results depend on the processing

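The difference of Sox17 lay between -3.55 and -2.96 over 22 alternatives, moving by less than its spread between tumors. The 1822 genes past the threshold became 1092 without Villin-WlscKO tumors 2 and 3 and lay between 1231 and 1983 without each tumor in turn. The split of 1026 higher and 796 lower became 1385 and 412 with equal FPKM sums, and 894 and 1126 after quantile normalization. With the replicate number as a block 1627 genes passed, and the block changed no call of a Sox gene. Of the listed genes, Rgmb lost its call with the block (adjusted p = 0.0540) and Rnf43 was lower past the threshold. Without Villin-WlscKO tumors 2 and 3, Sox18 differed by -1.35 relative to the endothelial genes and by -1.29 relative to Sox7 and lost its call. With all tumors the differences were -1.59 and -1.62, so they became smaller while fewer tumors entered. Why the call was lost was not tested. Without each tumor in turn these differences lay between -1.85 and -1.47 and between -1.87 and -1.43. The uncalled difference of Sox7 turned to -0.033 with a pseudocount of 0.1, -0.022 after quantile normalization, -0.33 without tumors 2 and 3, and lay between -0.10 and 0.15 without each tumor. Relative to the endothelial genes it turned to -0.045 with a pseudocount of 0.1, -0.0052 with equal FPKM sums and -0.063 without tumors 2 and 3, and lay between -0.035 and 0.12 without each tumor. Sox9 turned to 0.0048 and Sox2 to -0.73 without tumors 2 and 3, and Sox2 lay between -0.12 and 0.58 without each tumor. Sox5 turned to -0.036 after quantile normalization and lay between -0.067 and 0.14 without each tumor. Where no cause is named it was not tested.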

Other observations

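Chosen after their values were seen, the next genes by likeness to the Sox17 profile were Rarb, a retinoic acid receptor, at 9.42 ± 5.37 and 1.59 ± 0.90 FPKM (SD, n = 5 in each group), and Cldn6, a claudin of embryonic epithelium, at 10.1 ± 5.99 and 1.06 ± 0.18 FPKM. Neither group pair overlapped. For Rarb, as for Sox17 and Irx4, control tumor 1 held the highest value, 18.6 FPKM, and control tumor 5 the lowest control value, 5.37 FPKM. The likeness measure selects for such a shared order, so nothing is read from it. Cldn6 was highest in control tumor 4, at 19.3 FPKM. No test is given for these genes.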
